A study of Mus musculus with 8 samples.

Results

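Genes of early and fetal B cell development, 10 in number, were followed in peritoneal B-1a cells that had lost PTIP. They were taken by name in 3 role groups: the surrogate light chain genes Vpreb1, Vpreb2, Vpreb3 and Igll1, the recombination genes Rag1, Rag2 and Dntt, and the fetal B-1 programme genes Lin28b, Arid3a and Bhlhe41. Of these 10 genes, 9 had a probe set of their own among the 22180 genes tested. The only Rag1 probe set is shared with the neighbouring gene Iftap in the platform annotation, so Rag1 was not analysed here. Each of the 9 genes had 1 usable probe set.

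B-1a cells are long-lived B cells that renew themselves in the peritoneal and pleural cavities. Here they were obtained by cell sorting from the peritoneum of mice aged 5 weeks. The KO mice were PTIPflox/flox and the WT mice PTIP+/+, and both groups carried 1 Cre allele that is active in B lineage cells from their progenitors on. RNA of 29 KO mice and 22 WT mice was divided into 4 pools per genotype, with 1 Affymetrix array per pool. The sources used here do not give the number of mice per pool, their sex or the sort gates.

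A developing B cell first makes an immunoglobulin heavy chain, which is tested on the cell surface as the pre-B cell receptor together with a surrogate light chain made of VPREB1 or VPREB2 and IGLL1 (lambda 5). RAG1 and RAG2 cut the antigen receptor genes, and terminal transferase, the product of Dntt, adds untemplated bases at the joins. These genes are largely shut off in mature B cells. B-1a cells arise largely from fetal and neonatal precursors, in which the RNA-binding protein LIN28B holds down let-7 microRNAs and so sustains their target Arid3a in mice, while BHLHE41 is a transcription factor that mature B-1a cells keep expressing.

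Vpreb3 alone among the 9 genes passed the test, and it was higher in KO. Bhlhe41 was well above background and nearly level between the genotypes, Arid3a was slightly lower in KO without passing the test, and Dntt was slightly higher in KO without passing it. The group means of Vpreb1, Vpreb2, Igll1, Rag2, Dntt and Lin28b lay within the rough background range described below in both genotypes. The test was limma's moderated test over all 22180 genes with Benjamini-Hochberg adjustment, and a gene with an adjusted p under 0.05 is described as called. One call among 9 genes stood beside 3.59% called among all genes, 1.49% higher and 2.10% lower in KO, so the count speaks of 1 gene rather than of the group. The median difference of the 9 genes was 0.05 on the log2 scale, against 0.02 over all genes tested.

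Values are log2 RMA values, on which a difference of 1 is a doubling. The table carries no calls of presence, so 1105 olfactory receptor genes, which B cells should not express, served as a rough floor. Between the 5th and the 95th percentile their group means lay from 2.07 to 3.90 in KO and from 2.05 to 3.85 in WT. The group means of 6 of the 9 genes fell within this range in both genotypes and 3 lay above it. Probes differ in affinity, so a gene in that range is only said to lie there. RMA values flatten near the floor, and a difference in a dim gene is understated.

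The array-wide checks were as follows. Counts in these and later gene lists stand beside 3.59% of all genes called and 15.3% at an unadjusted p under 0.05. Paxip1, the gene for PTIP, was 6.36-fold lower in KO, with 4 KO pools between 3.58 and 4.79 and 4 WT pools between 6.87 and 7.16. All 11 measured B-1a markers lay above the olfactory range in both genotypes, but their levels differed: 5 fell and 1 rose, 9 had an unadjusted p under 0.05, and the median was -0.38. Itgam (CD11b) fell by 1.68, Fcrl5 by 1.39 and Zbtb32 by 1.11, whereas Cd36 rose by 1.66. Cd5, which defines B-1a cells, averaged 7.48 ± 0.19 in KO and 7.44 ± 0.15 in WT (SD, n = 4 each). It was highest in KO pool 1, at 7.71, the pool with the highest T cell marker mean. The part of T cells in the Cd5 level was not tested. The mean of 13 T cell markers lay between 5.25 and 7.19 in KO pools and between 4.80 and 5.69 in WT pools, highest in KO pools 1 and 2. Limma called 0 of these 13 markers, 8 had an unadjusted p under 0.05, and 12 of the 13 were higher in KO by their means (median 0.87), among them Cd3e by 2.21 and Cd3d by 2.08. The summed level of the 13 on the log2 scale lay between 11.2 and 11.9 in KO pools and between 11.2 and 11.4 in WT pools, and its brightest gene was Cd2, at 10.83 in KO and 11.004 in WT, which mouse B cells also express. Of 9 NK cell markers 2 rose, Klrd1 by 1.83 and Klrb1c by 0.73, and all 9 had a positive difference (median 0.37). Their list means ran from 3.72 to 4.68 in KO pools and from 3.199 to 3.78 in WT pools. By group means, 2 of these 9 lay above the olfactory range in both genotypes. Klrb1c, at 3.68 in WT, lay within it there. Of 6 plasma cell markers 1 rose, Jchain, by 1.49 (limma adjusted p = 0.000197), and the median was 0.03. An unadjusted p under 0.05 was found for 3 of the 6, and 4 had a positive difference. Xbp1 differed by -0.35 and Irf4 by -0.34, neither called. The summed level of the 6, on the log2 scale, lay between 8.57 and 8.67 in KO pools and between 8.67 and 8.83 in WT pools. Of 11 macrophage markers 1 was called, Cd68 at -0.56 (limma adjusted p = 0.0275). The median was -0.09, and 5 had a positive difference. Their mean lay between 4.62 and 4.95 in KO pools and between 4.59 and 5.37 in WT pools, highest in WT pool 1. Limma called 0 of 6 mast cell markers. Their mean lay between 3.27 and 3.74 in KO pools and between 3.02 and 4.46 in WT pools, again highest in WT pool 1. In a bulk sample, fewer cells of a type and less RNA per cell cannot be told apart.

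**Figure D1:**
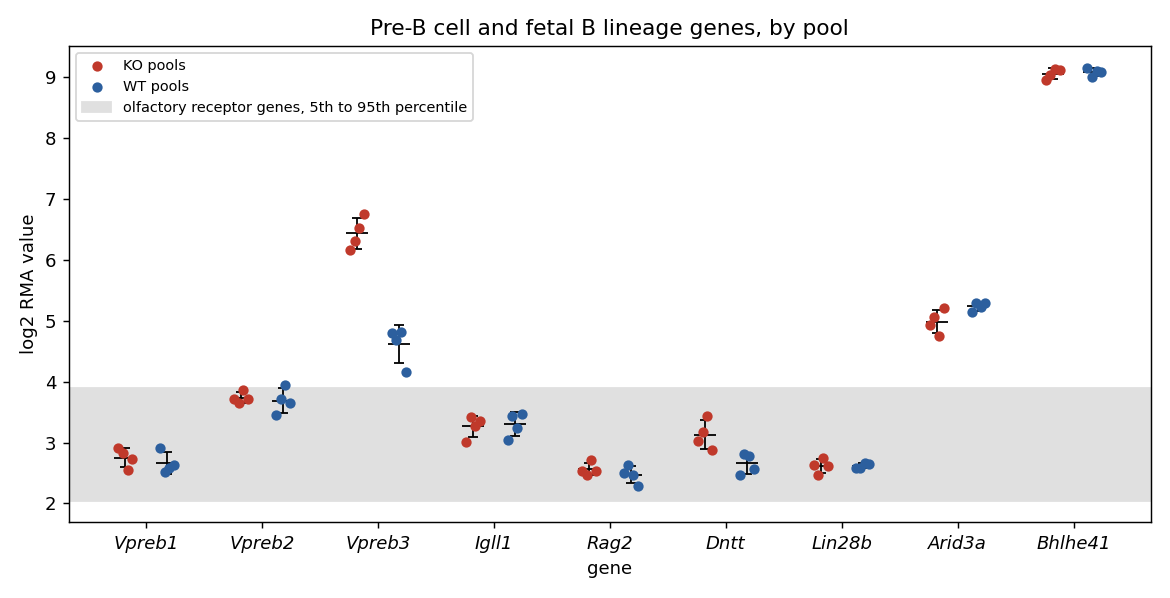
Log2 RMA values of the 9 measured genes in 4 KO pools (red, left of each pair) and 4 WT pools (blue, right), with the mean and SD in black. The grey band spans the 5th to 95th percentile of olfactory receptor genes. The Vpreb3 pools separate by genotype, Bhlhe41 sits near 9 in all 8 pools, and the group means of 6 genes lie in the band. Vpreb2 in WT pool 3, at 3.95, lies just above it.

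Vpreb3 encodes a small immunoglobulin-like protein that binds newly made heavy and light chains in the endoplasmic reticulum and, unlike VPREB1 and VPREB2, does not form the surface pre-B cell receptor. It stood at 6.17, 6.30, 6.52 and 6.75 in KO pools 1 to 4, against 4.80, 4.68, 4.81 and 4.16 in WT pools 1 to 4. Every KO pool was above every WT pool, and the gap between the lowest KO pool and the highest WT pool was wider than the spread within either genotype. The means were 6.43 ± 0.26 in KO and 4.61 ± 0.31 in WT (SD, n = 4 each). Vpreb3 thus differed by 1.82 (SE 0.16, 95% interval 1.46 to 2.18, limma adjusted p = 0.000155), or 3.54-fold with an interval from 2.75 to 4.54. It was the 8th largest rise of the 331 genes called higher in KO.

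Vpreb3 was set beside the T cell marker mean, which also differed between pools. Within the KO group the T cell marker mean was 7.19 and 6.93 in pools 1 and 2 and 5.25 and 5.76 in pools 3 and 4, and pools 3 and 4 had the higher Vpreb3 values. KO pool 3 lay within the range of the WT pools in this mean and KO pool 4 above it. Without KO pools 1 and 2 the difference was 2.02, and in a fit that held the T cell marker mean constant it was 1.93 (limma adjusted p = 0.00190 and 0.00184). Leaving out any single pool gave differences from 1.67 to 1.91, all called. Vpreb3 is also expressed in follicular B cells, another subset a B cell gate could hold. Of 8 measured follicular markers 1 rose and 1 fell, with a median of -0.16. An unadjusted p under 0.05 was found for 6 of the 8, beside 15.3% of all genes, and 3 had a positive difference. The summed level of the 8, on the log2 scale, lay between 10.9 and 11.1 in KO pools and between 11.1 and 11.2 in WT pools. The brightest of the 8 was Cxcr5, at 10.05 in KO and 9.81 in WT. The 2 called, complement receptor Cr2 (0.74, SE 0.17) and complement regulator Cd55 (-0.63, SE 0.09), are named after their values were seen, and the part of such cells in the Vpreb3 result was not tested.

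**Figure D2:**
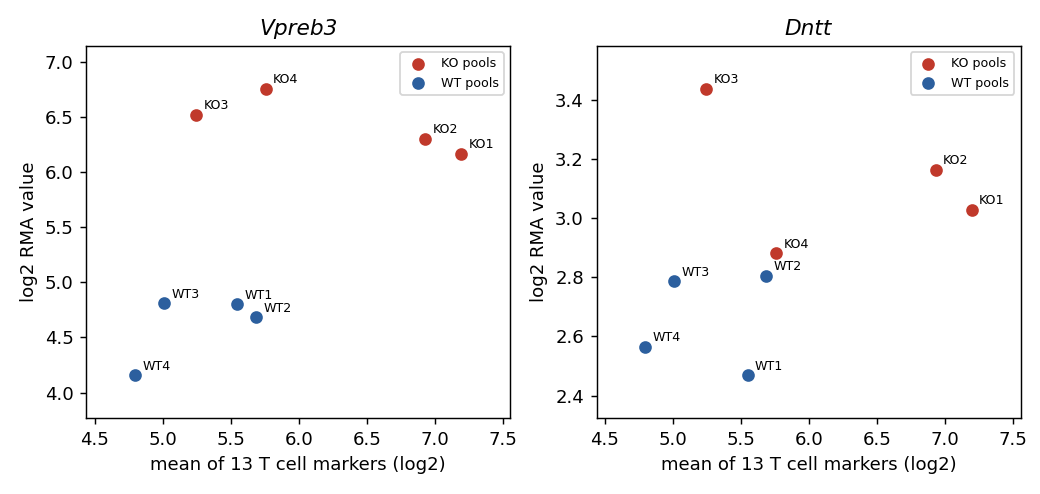
Log2 RMA values of Vpreb3 (left) and Dntt (right) against the mean of 13 T cell markers in each pool, with KO pools in red and WT pools in blue. In T cell marker mean KO pool 3 lies within the WT range and the other KO pools lie above it. Vpreb3 was 6.52 in KO pool 3 and 6.75 in KO pool 4.

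The Vpreb3 promoter is shown because Vpreb3 is the member that changed. The RefSeq window on GRCm38.p6, chr10:75948050-75948349 on the plus strand, runs from 250 bases before the annotated start to 50 after it, and capitals mark a match to the octamer ATTTGCAT, a motif bound by OCT1 and OCT2 in B cell promoters.
Vpreb3: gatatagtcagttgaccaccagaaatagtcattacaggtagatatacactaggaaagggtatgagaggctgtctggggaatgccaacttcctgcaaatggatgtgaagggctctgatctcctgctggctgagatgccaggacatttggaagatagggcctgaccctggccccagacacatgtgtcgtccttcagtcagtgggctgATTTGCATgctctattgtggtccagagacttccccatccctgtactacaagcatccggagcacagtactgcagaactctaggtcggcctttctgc
The match begins 45 bases before the start. The octamer, searched on both strands, occurs in 1.74% of the 32851 promoter windows of the same length, and in 1 of the 9 windows found for the 10 genes. In all, 5 motifs, chosen after the members' values were seen, were searched on both strands in these 9 windows. The palindrome bound by EBF1, an early B cell factor, had a match in 0 of the 9, against 0.904% of all windows. The E-box CAGGTG, a sequence bound by E2A, was found in the windows of Vpreb1, Vpreb2, Igll1, Rag1 and Bhlhe41, against 20.2% of all windows. A further E2A sequence, CAGCTG, was found in those of Vpreb2, Igll1 and Rag1, against 16.3% of all windows. The Vpreb3 window held neither E-box. The last motif, CACGTG, is given with Bhlhe41, and 0 pairs of matches to different motifs overlapped. A match is a description of these letters and says nothing of binding, and no match says only that the letters are not in the window.

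Spry2, Zc2hc1a and Coro1c were the protein-coding genes that followed Vpreb3 most closely by Pearson's r over the 8 arrays, a measure dominated by the shared split between the genotypes. Spry2, a sprouty inhibitor of receptor tyrosine kinase signalling, had an r of 0.981 and averaged 5.77 ± 0.13 in KO and 4.48 ± 0.06 in WT (SD, n = 4 each). It rose by 1.29 (SE 0.09, limma adjusted p = 3.63e-05). Zc2hc1a had an r of 0.980 and rose by 0.60 (SE 0.08), whereas Coro1c, a coronin that binds actin, had an r of 0.979 and a difference of 0.27 that was not called (limma adjusted p = 0.0675). Taken within genotypes, as deviations from the group means, the r values of these 3 genes were 0.68, 0.65 and 0.63.

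Protein-coding genes next to Vpreb3 on the chromosome were read in the order of the RefSeq table, 2 on each side, a choice made after the values were seen. Chchd10, which encodes a mitochondrial protein, lies 2 genes before it and averaged 7.05 in KO and 6.22 in WT. It rose by 0.83 (SE 0.12, limma adjusted p = 0.00325). On the other side Gm5134 and Zfp280b differed by -0.01 and 0.34, neither called. The gene between Chchd10 and Vpreb3 was not analysed here.

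None of the 3 genes of the surface surrogate light chain was called. Vpreb1 stood at 2.90, 2.82, 2.55 and 2.73 in KO pools, against 2.92, 2.52, 2.58 and 2.64 in WT pools. Its genotypes overlapped, all 8 values lay in the olfactory range, and the difference was 0.09 with a 95% interval from -0.16 to 0.33. Vpreb2 stood at 3.72, 3.65, 3.86 and 3.71 in KO pools, against 3.44, 3.71, 3.95 and 3.64 in WT pools. It too overlapped, with a difference of 0.05 and an interval from -0.20 to 0.29. Igll1 stood at 3.01, 3.41, 3.28 and 3.35 in KO pools, against 3.05, 3.44, 3.24 and 3.47 in WT pools. Its values again overlapped, with a difference of -0.03 and an interval from -0.30 to 0.23. The upper ends of these 3 intervals lay below the lower end of the Vpreb3 interval at 1.46, though a rise that stays under the floor would not be seen. Vpreb1 and Igll1 are direct neighbours in the RefSeq gene order, and Vpreb3 lies on another chromosome.

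Vpreb1 and Vpreb2 are close copies, and whether their probes separate them was not tested. Their promoter windows, which do not bear on the probes, are shown for their likeness. They share an ungapped stretch of 156 bases on GRCm38.p6, at chr16:16869206-16869361 on the minus strand for Vpreb1 and chr16:17980315-17980470 on the plus strand for Vpreb2. The stretch reaches an edge of the window in each gene, so the windows limit its length. It holds the CAGGTG match counted for both genes, which begins 88 bases before the start of Vpreb1 and 232 before that of Vpreb2. Capitals mark the 3 bases that differ, and the other 153 bases, or 98.1%, are identical.
Vpreb1: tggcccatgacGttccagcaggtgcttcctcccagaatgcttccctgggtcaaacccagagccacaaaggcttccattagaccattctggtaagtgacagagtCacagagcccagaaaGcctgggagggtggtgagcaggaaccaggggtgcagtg
Vpreb2: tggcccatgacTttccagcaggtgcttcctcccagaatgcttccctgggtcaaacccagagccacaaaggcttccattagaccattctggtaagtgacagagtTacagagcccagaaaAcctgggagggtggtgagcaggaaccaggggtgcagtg
Both genes lay in the olfactory range by group mean in both genotypes, and within genotypes their r over the 8 arrays was -0.75.

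**Figure D3:**
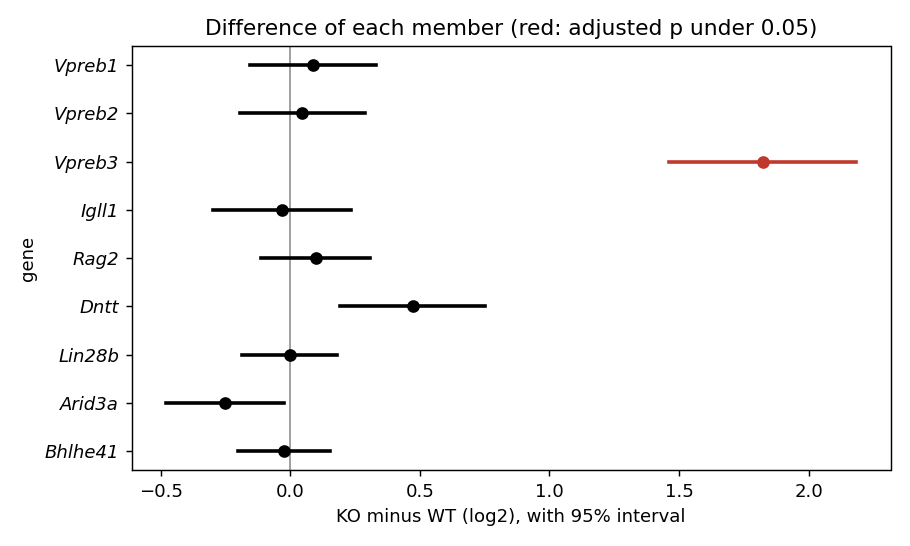
KO minus WT on the log2 scale for the 9 measured genes, as points with 95% intervals from limma. Vpreb3, in red, is the called gene, at 1.82. The intervals of Dntt and Arid3a leave out 0 before adjustment over all genes, and the other 6 include it.

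Of the recombination genes, Rag2, which forms the recombinase with RAG1, stood at 2.54, 2.47, 2.71 and 2.54 in KO pools, against 2.49, 2.63, 2.46 and 2.29 in WT pools. The genotypes overlapped within the olfactory range, and the difference was 0.10 with a 95% interval from -0.11 to 0.31. Dntt stood at 3.03, 3.17, 3.44 and 2.88 in KO pools, against 2.47, 2.81, 2.79 and 2.57 in WT pools. Every KO pool was above every WT pool, but by only a small margin between KO pool 4 and WT pool 2, and all 8 values lay within the olfactory range. The means were 3.13 ± 0.24 in KO and 2.66 ± 0.17 in WT (SD, n = 4 each), a difference of 0.47 (SE 0.13, interval 0.19 to 0.75) that was not called (limma adjusted p = 0.0766). Groups did not overlap for 2 of the 9 genes, Vpreb3 and Dntt, and for 10.5% of all genes tested.

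Dntt did not track Vpreb3 from pool to pool. Within genotypes the r of the pair was 0.03 over the 8 arrays, and KO pool 3, the highest in Dntt, was not the highest in Vpreb3. Leaving out single pools gave Dntt differences from 0.37 to 0.55, none called (limma adjusted p from 0.0537 to 0.185). Holding the T cell marker mean constant, the difference was 0.55 (limma adjusted p = 0.171).

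In the fetal B-1 programme, Lin28b stood at 2.63, 2.47, 2.75 and 2.62 in KO pools, against 2.58, 2.59, 2.67 and 2.65 in WT pools. All values lay in the olfactory range, where its difference was 0.00 with a 95% interval from -0.19 to 0.18. Arid3a, an A/T-rich DNA binding factor also known as Bright, stood at 4.93, 5.07, 4.75 and 5.20 in KO pools, against 5.14, 5.29, 5.22 and 5.29 in WT pools. KO pool 4 reached into the WT range and the other 3 KO pools lay below it. The means were 4.99 ± 0.19 in KO and 5.24 ± 0.07 in WT (SD, n = 4 each). The difference of -0.25 (SE 0.10, interval -0.48 to -0.02) was not called (limma adjusted p = 0.273). At an unadjusted p under 0.05, 3 of the 9 genes stood out, Vpreb3, Dntt and Arid3a, against 15.3% of all genes.

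Bhlhe41 stood at 8.94, 9.04, 9.13 and 9.11 in KO pools, against 9.15, 8.99, 9.10 and 9.08 in WT pools. The genotypes overlapped, with KO pool 1 lowest and WT pool 1 highest, and the 8 values spanned 0.21. The means were 9.06 ± 0.09 in KO and 9.08 ± 0.07 in WT (SD, n = 4 each). Bhlhe41 thus differed by -0.02 (SE 0.08, limma adjusted p = 0.937), and its 95% interval from -0.20 to 0.15 corresponds to 0.87-fold to 1.11-fold. Of the 9 genes Bhlhe41 had the narrowest interval.

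The Bhlhe41 promoter is shown because BHLHE41 and its relatives bind the E-box CACGTG, which is marked in capitals. The RefSeq window on GRCm38.p6 is chr6:145865371-145865670 on the minus strand.
Bhlhe41: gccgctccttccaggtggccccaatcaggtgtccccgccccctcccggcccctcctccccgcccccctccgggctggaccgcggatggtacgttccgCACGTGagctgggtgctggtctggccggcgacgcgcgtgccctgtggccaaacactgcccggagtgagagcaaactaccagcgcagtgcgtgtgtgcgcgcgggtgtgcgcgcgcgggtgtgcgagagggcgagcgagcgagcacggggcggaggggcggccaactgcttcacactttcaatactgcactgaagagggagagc
The match begins 153 bases before the annotated start. CACGTG, which reads the same on both strands, occurs in 7.15% of all windows, and among the 9 windows also in that of Lin28b, 49 bases before its start.

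The genes closest in pattern to Arid3a were Dlx6 (r = 0.978), Mri1 (0.955) and Nme6 (0.945), and those closest to Bhlhe41 were Mus81 (0.949), Asnsd1 (0.941) and Nog (0.933), each over 8 arrays. None of these 6 genes was called, and their differences ran from -0.37 for Dlx6 to -0.04 for Asnsd1. They are the highest r values picked from all protein-coding genes over 8 arrays, so they are a ranking and do not show shared regulation. Dlx6 (3.13 in KO, 3.50 in WT) and Nog (3.34 and 3.41) lay in the olfactory range, and Bhlhe41 itself spanned only 0.21.

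No relative or partner of the fetal genes was called. Of 12 measured genes of the LIN28 and let-7 axis and relatives of the members, 0 were called by limma, 1 had an unadjusted p under 0.05, and the median difference was -0.05. That 1 gene was Lin28a, the paralog of Lin28b, at 3.97 ± 0.22 in KO and 3.61 ± 0.17 in WT (SD, n = 4 each; limma adjusted p = 0.169). Its WT mean lay within the olfactory range and its KO mean just above it. Bhlhe40, the paralog of Bhlhe41, differed by 0.19, the chromatin protein gene Hmga2 by 0.19 and Dicer1, which cuts microRNA precursors, by -0.10, none called. The probe sets of 11 let-7 hairpin genes, added after the values were seen, differed by between -0.21 and 0.15. Their group means ran from 2.08 to 3.87, beside an upper end of the olfactory range of 3.90 in KO and 3.85 in WT. Limma called 0 of them, and 0 had an unadjusted p under 0.05. Mature let-7 is not what such probe sets measure.

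Genes that act with the pre-B cell receptor or at recombination breaks gave no calls in the fit over all genes. Limma called 0 of 16 pre-B cell receptor partners and effectors (3 at an unadjusted p under 0.05, median -0.01). Irf4, a factor that ends the pre-B stage, differed by -0.34 (SE 0.10), its relative Irf8 by 0.37, the cyclin Ccnd2, lowest in WT pool 2 at 9.94, by 0.27 and the Ikaros family gene Ikzf3 by -0.16 (limma adjusted p from 0.0881 to 0.375). Irf8 was called when WT pool 2 was left out (0.49, limma adjusted p = 0.0242). Irf4 was called with genes below the median level left out and with an intensity trend in the variance prior (limma adjusted p = 0.0474 and 0.0400), and Ccnd2 with that trend (0.0184). Limma called 0 of 13 genes that join V(D)J breaks (2 at an unadjusted p under 0.05, median 0.01). Xrcc6, the Ku70 end-binding subunit, differed by 0.34 (limma adjusted p = 0.0585; called with genes below the median level left out, repeated quantile normalization and array weights, at 0.0291, 0.0417 and 0.0499), and the RAG cofactor Hmgb2 by 0.38, the polymerase gene Polm by -0.17 and the ligase gene Lig4 by 0.14.

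Of 21 measured transcription factors and other regulators of early B cell genes, 3 rose, 1 fell and 17 were not called, beside 3.59% called among all genes. An unadjusted p under 0.05 was found for 11 of them, beside 15.3% of all genes, and the median was 0.14. Satb1, a chromatin organiser that promotes Rag expression in mouse lymphoid precursors, averaged 5.50 ± 0.29 in KO and 4.16 ± 0.25 in WT (SD, n = 4 each) and rose by 1.34 (SE 0.16, limma adjusted p = 0.000974), with KO pool 1 highest at 5.92. That pool also had the highest T cell marker mean. The Satb1 difference was 1.08 with that mean held constant and 1.17 without KO pools 1 and 2 (limma adjusted p = 0.0121 and 0.0109). Both fits called it, and the part of T cells in it was not tested. Myb, needed for B cell progenitors, averaged 5.90 ± 0.24 in KO and 6.82 ± 0.35 in WT and fell by 0.92 (SE 0.17, limma adjusted p = 0.0125). Foxo1, which activates Rag genes in pre-B cells, rose by 0.42 (SE 0.09) and its relative Foxo3 by 0.36 (SE 0.09; limma adjusted p = 0.0308 and 0.0490). Foxo1 and Foxo3 lost their calls whichever single pool was left out (limma adjusted p from 0.0525 to 0.0838 for Foxo1 and from 0.0614 to 0.123 for Foxo3). Holding the T cell marker mean constant, neither Foxo3 nor Myb was called, with Foxo3 at 0.43 (SE 0.11) and Myb at -1.002 (SE 0.22) (limma adjusted p = 0.0606 for Myb, whose alternatives ran from 0.00190 to 0.0606).

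Surface genes of B cell progenitors gave 2 calls, both higher in KO. Of 13 measured, 2 rose and 0 fell, beside 3.59% called among all genes. An unadjusted p under 0.05 was found for 6, beside 15.3% of all genes, and the median was 0.07. By group means, 7 of the 13 lay above the olfactory range in both genotypes. Kit, Flt3, Cd34, Enpep and Mme lay within it in both. Bst1, an ectoenzyme of stroma and B cell precursors, averaged 5.68 ± 0.22 in KO and 3.68 ± 0.14 in WT (SD, n = 4 each) and rose by 1.998 (SE 0.12, limma adjusted p = 1.36e-05). Its WT mean lay within the olfactory range. The interleukin-2 receptor chain Il2ra (CD25), which also marks pre-B cells, rose by 0.75 (SE 0.18, limma adjusted p = 0.0457). It lost this call without KO pool 2, 3 or 4 or WT pool 1, 3 or 4 (limma adjusted p up to 0.123), and with the T cell marker mean held constant, where the difference was 0.88 with a wider SE of 0.23 (0.117). The interleukin-7 receptor gene Il7r, used by B progenitors and by T cells, spread widely at 7.73 ± 1.36 in KO and 4.98 ± 1.27 in WT and was not called (limma adjusted p = 0.0566). It was called without KO pool 3 or WT pool 1, with genes below the median level left out and with array weights (limma adjusted p = 0.0205, 0.0490, 0.0417 and 0.0365). Its difference of 2.75 became 1.01 with the T cell marker mean held constant and 1.63 without KO pools 1 and 2, neither called. Its KO values were highest in pools 1 and 2, those with the highest T cell marker mean, and the part of T cells in it was not tested. Spn (CD43) differed by -0.52 and was not called (limma adjusted p = 0.121). With the T cell marker mean held constant and without KO pools 1 and 2 it was -0.83 in both fits and called (limma adjusted p = 0.0227 and 0.0162).

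**Figure D4:**
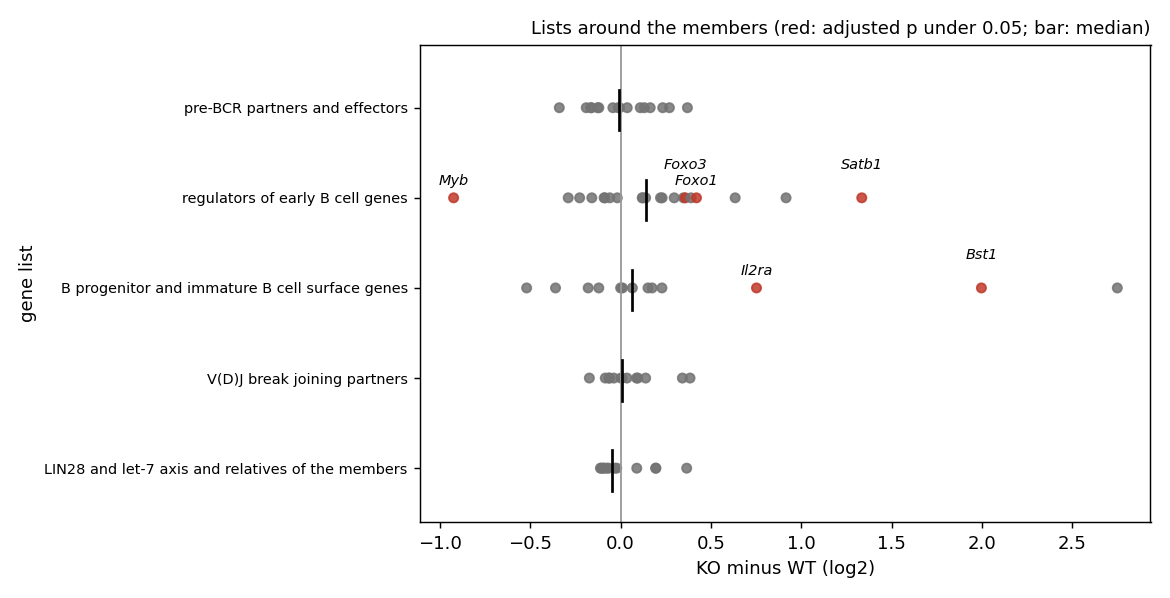
KO minus WT on the log2 scale for the measured genes of 5 lists around the members, 1 point per gene, with called genes in red and named and list medians as black bars. Calls are confined, among these 5 lists, to the regulators (4 genes) and the progenitor surface genes (2 genes).

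**Figure D5:**
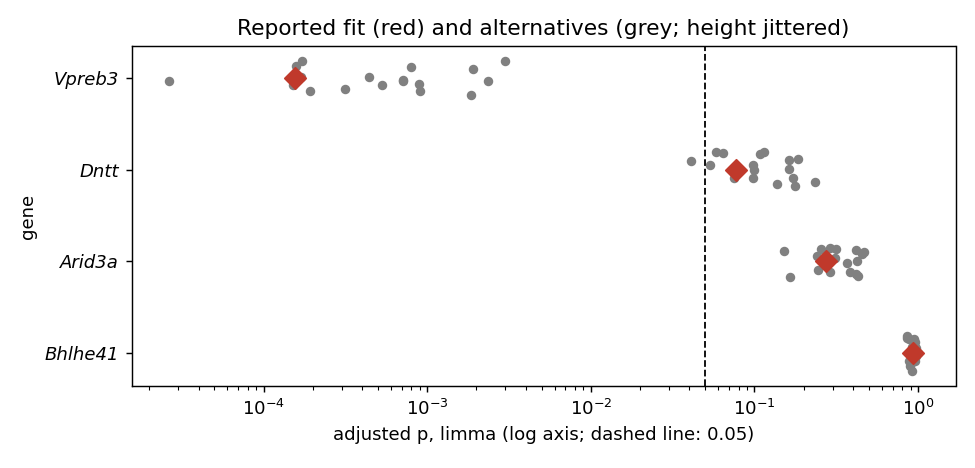
Adjusted p from limma on a log axis for 4 members, in the reported fit (red) and under each alternative setting (grey, height jittered). Vpreb3 stays left of the 0.05 line in all of them, Dntt crosses it in 1, and Arid3a and Bhlhe41 stay right of it.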

How the data were processed

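The authors deposited log2 values of 41345 probe sets on 8 arrays, made with RMA and R 3.2.2 per the submitters' processing notes. RMA corrects background, sets all arrays to a shared distribution and summarises probes, so differences are relative to the other genes. Array medians lay between 3.68 and 3.74. Precision is limited by the number of arrays, which have no read depth.

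Of 25335 annotated probe sets, 23521 had 1 gene symbol, and 1814 had several and were not named. A further 16010 were not annotated. Symbols were updated through a RefSeq table of GRCm38.p6. Per gene the probe set with the highest mean was kept, giving 22180 genes. KO was compared with WT by limma 3.58.1 in R 4.3.3 (lmFit, eBayes, two-sided tests, p-values adjusted over all genes by Benjamini-Hochberg), tested on simulated data. Named were all members, Paxip1, at most 4 genes of smallest p per list and the 3 genes most correlated with Vpreb3, Arid3a and Bhlhe41. Members, lists and tests were chosen with earlier results of these data known. Alternatives changed probe set choice, filter, scaling, variance prior, array weights, threshold, replicate block, T cell covariate and pools. The labels call the pools biological replicates, so p-values reflect the spread between pools of mice.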

Additional observations from a re-analysis of the deposited data

Results flagged for a closer look

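Among 60 groups of 4 pools checked for a value far from the other 3, 2 were found, and chance alone gives about 1 in 20. Satb1 was 5.92 in KO pool 1, above the other KO pools, whose nearest value was 5.39. The T cell marker mean was also highest in that pool, at 7.19. Ccnd2 was 9.94 in WT pool 2, where the nearest other WT pool had 10.06. No such value was found in any of the 9 members.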

How the results depend on the processing

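Vpreb3 was called in all 19 alternatives, with differences from 1.67 to 2.02. The count of called members was 1 throughout, except with the replicate block, where Dntt was also called (2 members; Dntt adjusted p = 0.0408 in limma, against 0.0408 to 0.235 over its 18 alternatives). The replicate numbers were not shown to pair the pools: deviations of same-numbered pools correlated at 0.036 to 0.107, and the block gave 666 called genes, Il7r among them (adjusted p = 0.000635). Over all genes, the 797 calls became 311 at an adjusted p under 0.01, 338 with the T cell marker mean held constant and 320 when KO pools 1 and 2 were both left out. Leaving out single pools gave 479 to 758 called genes and always 1 called member, and the gene count fell by over 1.5 times without KO pool 2 or WT pool 2, 3 or 4. Each of these fits has fewer arrays, a covariate or a stricter threshold. Uncalled members near 0 changed sign. Holding the T cell marker mean constant, Vpreb1 was -0.059, Igll1 0.055, Lin28b 0.086 and Bhlhe41 0.054. When KO pools 1 and 2 were left out, Vpreb1 was -0.025, Igll1 0.019, Lin28b 0.063 and Bhlhe41 0.041. Leaving out single pools, Vpreb2 ranged from -0.035 to 0.134, Igll1 from -0.118 to 0.052, Lin28b from -0.047 to 0.046 and Bhlhe41 from -0.054 to 0.013. The cause of these shifts was not tested. Of the fits of Paxip1 and the named list genes under the alternatives, 343 gave the reported call, 41 lost one, 14 gained one and 0 changed sign. The filter on low values removed the 6 dim members, for which values at the floor limit what can be said.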
